A study of Homo sapiens with 9 samples.

Results

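The genes described here are 54 genes of mitosis and the spindle, measured in Daudi cells in which SLC7A5 or MYC had been knocked down. They were chosen by symbol from a list of genes with known roles in mitosis, with earlier results of these data already seen. Each was read from the probe set that carries its symbol alone and has the highest mean over the 9 arrays. All 54 were among the 19775 genes with such a probe set, and all 54 were among the 11250 genes bright enough to be tested. Daudi is a Burkitt lymphoma B-cell line, a tumour type in which a translocation places MYC under immunoglobulin control. Cells were infected with an shRNA against Slc7a5 (Slc7a5-sh), against C-Myc (C-Myc-sh, the positive control of the study) or with a control shRNA (Ctrl-sh). Each group had 3 arrays, and every group, Ctrl-sh included, was kept in puromycin for 48 hours, with no time course. SLC7A5 encodes LAT1, which carries large neutral amino acids into the cell. The labels number the arrays as biological replicates but do not say whether they came from separate infections, so p-values measure the spread between these samples.

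All values are log2 signals of a short-oligonucleotide array, scaled by the authors so that the trimmed mean of each array was about 497 on the linear scale. The number of arrays, not a read depth, limits the precision. The targeted genes were checked first. MYC had log2 signals of 12.12, 12.14 and 12.13 in C-Myc-sh arrays, against 13.16, 13.26 and 13.24 in Ctrl-sh arrays, and fell to 46.9% of the Ctrl-sh level. SLC7A5 had log2 signals of 11.86, 11.84 and 11.95 in Slc7a5-sh arrays, against 12.06, 12.35 and 12.21 in Ctrl-sh arrays, and fell to 80.0% of the Ctrl-sh level. MYC was also lower in Slc7a5-sh arrays, at 12.90, 12.79 and 12.93, all below every Ctrl-sh array. The knockdowns thus differed in depth (46.9% for MYC, 80.0% for SLC7A5), and MYC RNA was lower in both. The part of this in the results was not tested. Markers above the level for testing were 9 of the 9 B-cell markers with a probe set, 0 of 9 myeloid markers, 3 of 12 T and NK cell markers (LCK, CD247 and CD3E) and 4 of 11 epithelial and fibroblast markers (COL1A1, DCN, KRT18 and KRT8). The summed linear signal of the B-cell markers was 35850 to 36560 in Slc7a5-sh, 52560 to 55490 in C-Myc-sh and 38870 to 42410 in Ctrl-sh. That of the T and NK cell markers was 1052 to 1338 in Slc7a5-sh, 582.7 to 761.7 in C-Myc-sh and 1449 to 1594 in Ctrl-sh, with LCK the brightest at a mean log2 signal of 8.76 over all arrays. The part of either sum in the results was not tested.

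Mitosis is started by the kinase CDK1 bound to A- and B-type cyclins, and is ended when the anaphase-promoting complex (APC/C) marks cyclin B and securin for destruction. Between these steps chromosomes are condensed, microtubules attach to kinetochores, and the spindle checkpoint holds the APC/C back until every kinetochore is attached. The RNAs of these genes peak together in G2 and mitosis, and their promoters often carry a cell cycle homology region (CHR) near the start with CCAAT boxes before it. The DREAM complex represses such promoters in resting cells, and MYBL2 with FOXM1 activates them in dividing cells. In cultures of mixed cell cycle phase, fewer dividing cells and less RNA per dividing cell cannot be told apart.

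As examples, 6 promoters are printed, chosen for CHR letters (TTTGAA or TTCGAA, on either strand) within 100 bases before the start. Among such genes they had the smallest p in C-Myc-sh against Ctrl-sh. The sequences are from RefSeq (GRCh38.p14) and run over the 120 bases before the start, read along the gene's own strand. Capitals mark CHR letters and CCAAT letters; TTCAAA and ATTGG are these letters on the other strand.
CCNB2 (chr15:59105026-59105145, plus strand): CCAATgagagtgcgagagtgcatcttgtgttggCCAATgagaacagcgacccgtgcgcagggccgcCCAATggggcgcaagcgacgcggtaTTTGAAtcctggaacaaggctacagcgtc
BUB1B (chr15:40160949-40161068, plus strand): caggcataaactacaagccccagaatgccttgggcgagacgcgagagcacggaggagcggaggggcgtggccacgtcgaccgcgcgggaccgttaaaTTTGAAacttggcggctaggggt
CDK1 (chr10:60778358-60778477, plus strand): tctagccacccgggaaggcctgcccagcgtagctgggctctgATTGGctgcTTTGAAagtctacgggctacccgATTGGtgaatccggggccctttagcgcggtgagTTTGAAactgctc
KIF11 (chr10:92593010-92593129, plus strand): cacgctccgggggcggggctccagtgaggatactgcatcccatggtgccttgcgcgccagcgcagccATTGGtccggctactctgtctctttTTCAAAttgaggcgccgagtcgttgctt
NCAPG (chr4:17810859-17810978, plus strand): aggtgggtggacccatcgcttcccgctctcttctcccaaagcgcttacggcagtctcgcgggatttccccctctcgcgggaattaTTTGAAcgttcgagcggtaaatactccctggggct
PRC1 (chr15:90994536-90994655, minus strand): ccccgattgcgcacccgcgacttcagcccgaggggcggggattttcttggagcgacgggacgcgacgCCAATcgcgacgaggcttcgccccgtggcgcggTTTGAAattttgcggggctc

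In CCNB2 the CHR letters begin 29 bases before the start, behind CCAAT letters that begin at -120, -87 and -54. The CHR letters begin at -23 in BUB1B, -28 in KIF11, -35 in NCAPG and -20 in PRC1, and CDK1 holds them at -69 and again at -13. BUB1B and NCAPG hold no CCAAT letters in the bases printed. The table holds a promoter for 46 of the 54 genes. In the 250 bases before the start, CHR letters were found in 24 of these (52.2%), against 4705 of all 27305 genes in the table (17.2%). Within 100 bases of the start the shares were 41.3% of the mitosis genes and 6.14% of all genes. CCAAT letters were found in 34 of the 46 (73.9%), against 37.0% of all genes, and CHR and CCAAT letters together in 20 (43.5%), against 7.38%. The E-box CACGTG, the letters that MYC and MAX bind, was found in 7 (15.2%), against 7.73% of all genes. The searched letters of one motif are not part of another, and a match is a description of the sequence. When the variants TTTAAA and CTTGAA were counted too, a choice made after the data were seen, the CHR share was 69.6% of the mitosis genes, against 33.4% of all genes.

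**Figure D1:**
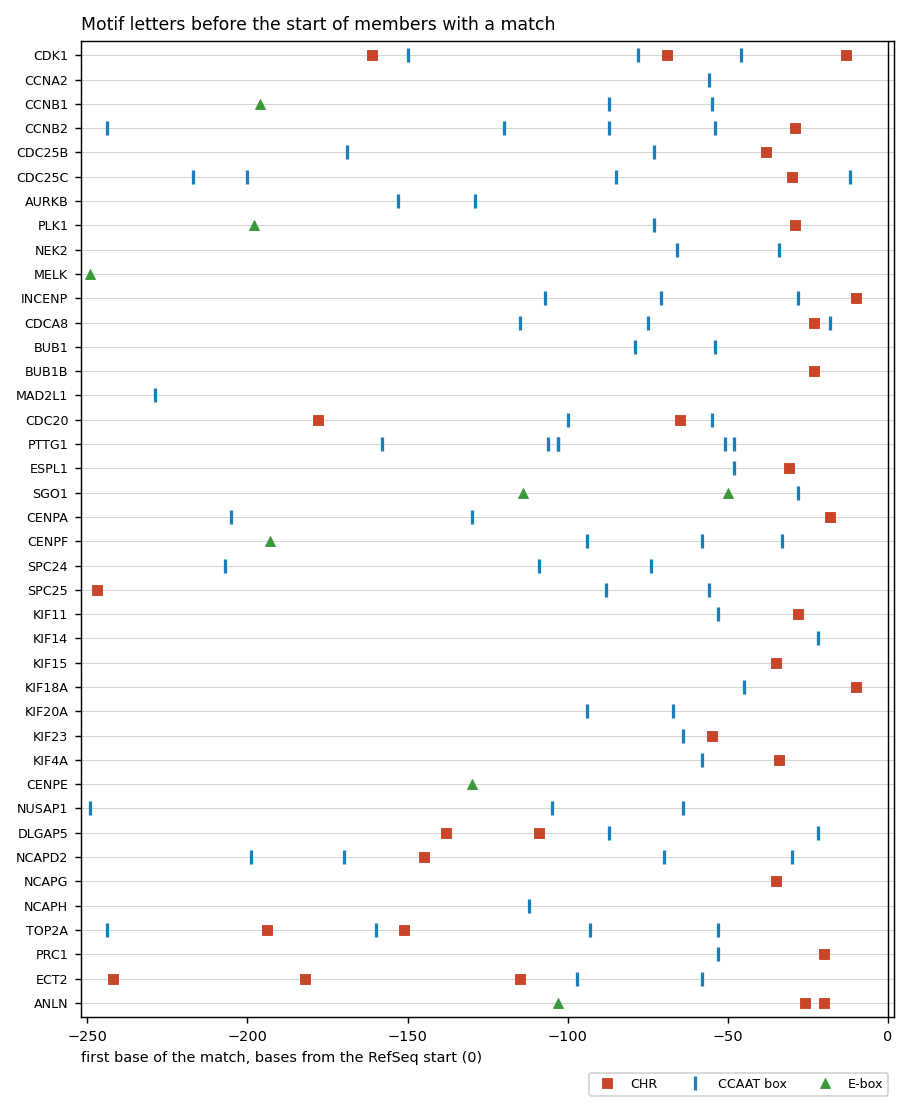
Positions of CHR letters (squares), CCAAT letters (bars) and E-box letters (triangles) before the RefSeq start, in bases (x axis, start at 0), for the 40 mitosis genes with at least 1 match. Most CHR letters lie in the last 100 bases before the start (19 of the 24 genes that hold them), as in CCNB2 at -29, PLK1, CDC25C and KIF4A.

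Knockdown of MYC lowered nearly the whole group, whereas with knockdown of SLC7A5 calls went in both directions, as they did over all tested genes. Calls rest on limma, with adjusted p-values under 0.05. In C-Myc-sh against Ctrl-sh, 51 of the 54 genes fell, where 54.9% of all tested genes were called and 26.2% were called lower. In limma 0 rose, where 28.7% of all tested genes were called higher. At an unadjusted p under 0.05 also 0 rose, beside 3504 of the 11250 tested genes. The median log2 change of the 54 genes was -0.55, against 0.04 over all tested genes. Of the 54, 10 fell by at least 1 on the log2 scale (18.5%), against 6.28% of all tested genes. All 3 C-Myc-sh arrays lay below all 3 Ctrl-sh arrays for 49 of the 54 and above them for 0. Of all tested genes 62.2% were without overlap, 29.1% below and 33.2% above. In Slc7a5-sh against Ctrl-sh, 25.3% of all tested genes were called. Of the 54, 11 rose (20.4%, beside 14.3% of all tested genes) and 10 fell (18.5%, beside 11.0%). The remaining 33 had no call, and the median log2 change was 0.06, against 0.03 over all tested genes. The arrays of the 2 groups did not overlap for 15 genes that were above and 12 that were below, where 39.8% of all tested genes were without overlap, 21.8% above and 18.0% below. Both comparisons use the same Ctrl-sh arrays. With each array centred on its median, 40.7% of the C-Myc-sh calls over all genes were higher, against 52.3% as deposited, and 52 of the 54 genes fell. In C-Myc-sh against Slc7a5-sh that share was 36.8% centred and 49.3% as deposited.

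The whole-group shift was alike in the 3 replicates. The median over the 54 genes of the deviation from the Ctrl-sh mean was -0.57, -0.55 and -0.57 in the C-Myc-sh arrays, against 0.01, -0.01 and -0.01 in the Ctrl-sh arrays. In the Slc7a5-sh arrays it was 0.04, 0.00 and 0.06, which lies within 0.1 of the Ctrl-sh arrays. Replicates of a gene differed little: the median SD over the 54 genes was 0.09 in Slc7a5-sh, 0.09 in C-Myc-sh and 0.07 in Ctrl-sh, and the highest was 0.34, for KIF18A in Ctrl-sh. The called decreases in C-Myc-sh left between 23.6% and 87.5% of the Ctrl-sh level, with a median of 67.8%.

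**Figure D2:**
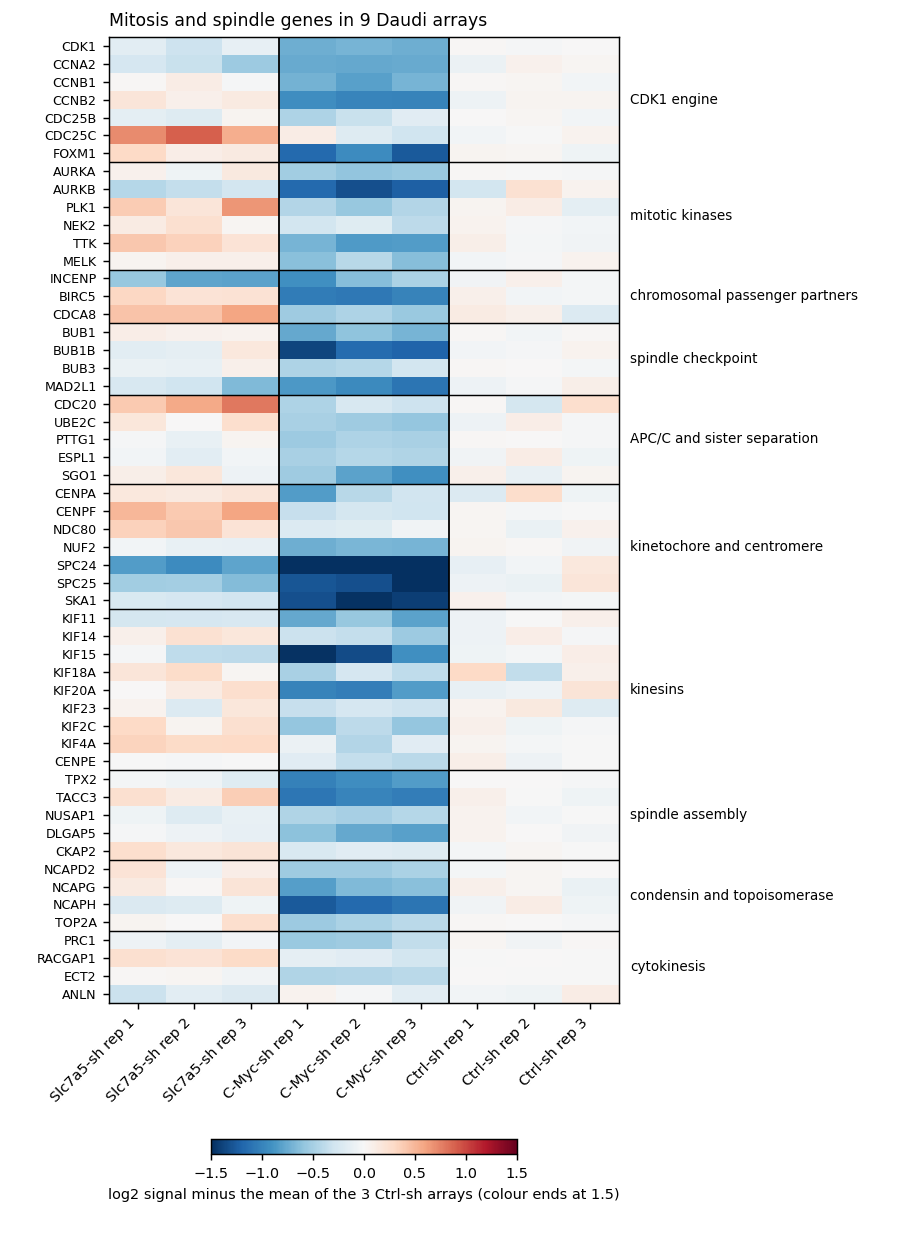
Log2 signal of each of the 54 genes on each of the 9 arrays minus the mean of the 3 Ctrl-sh arrays (colour, red higher and blue lower), with genes in rows by function. The C-Myc-sh columns are blue for nearly every gene, with SPC24 the darkest at a mean of -2.08, and the Slc7a5-sh columns hold red rows such as CDC25C and CDC20 beside blue rows such as SPC24 and INCENP.

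The counts by function that follow stand beside 26.2% lower and 28.7% higher of all tested genes in C-Myc-sh. In Slc7a5-sh these shares were 11.0% lower and 14.3% higher, and each function holds few genes. The CDK1 engine holds the kinase that drives entry into mitosis, its cyclins, the phosphatases that switch it on and FOXM1. In C-Myc-sh, 6 of its 7 genes fell and CDC25C had no call. In Slc7a5-sh, CDC25C rose, CDK1 and CCNA2 fell, and 4 genes had no call. CCNB2 (202705_at), a B-type cyclin, had log2 signals of 12.68, 12.57 and 12.63 in Slc7a5-sh arrays, 11.57, 11.50 and 11.49 in C-Myc-sh arrays, and 12.42, 12.53 and 12.53 in Ctrl-sh arrays. All C-Myc-sh arrays were below the others, and CCNB2 fell to 50.9% of the Ctrl-sh level (log2 change -0.97 ± 0.06 SE, adjusted p = 2.82e-09), a call lost with the mean of its probe sets (-0.48, adjusted p = 0.273). CCNA2 (cyclin A2), which acts in S phase and early mitosis, had 12.49, 12.41 and 12.20 in Slc7a5-sh arrays, 11.98, 11.97 and 11.98 in C-Myc-sh arrays, and 12.65, 12.80 and 12.77 in Ctrl-sh arrays. It was below every Ctrl-sh array in both knockdowns, with log2 changes of -0.37 ± 0.07 (adjusted p = 0.00162) in Slc7a5-sh and -0.76 ± 0.07 (adjusted p = 3.89e-07) in C-Myc-sh. On its dimmer probe set 203418_at, CCNA2 had -0.18 in Slc7a5-sh with no call (adjusted p = 0.0684) and -0.99 in C-Myc-sh, which was called. CDC25C, a phosphatase that activates CDK1, had 9.56, 9.74 and 9.39 in Slc7a5-sh arrays, 8.96, 8.66 and 8.55 in C-Myc-sh arrays, and 8.81, 8.84 and 8.90 in Ctrl-sh arrays. It was higher in all 3 Slc7a5-sh arrays, at 164% of the Ctrl-sh level (log2 change 0.72 ± 0.14, adjusted p = 0.002), and its C-Myc-sh arrays overlapped with Ctrl-sh. FOXM1, the transcription factor, fell to 45.9% of the Ctrl-sh level in C-Myc-sh, CCNB1 to 59.9%, CDK1 to 60.6% and CDC25B to 79.9%. CDK1 was at 13.92, 13.77 and 13.95 in Slc7a5-sh, against 14.09, 14.06 and 14.08 in Ctrl-sh (log2 change -0.19, adjusted p = 0.0147). That call was lost without Ctrl-sh replicate 1 (-0.19) or without Slc7a5-sh replicate 2 (-0.14), with each array centred on its median (-0.21), and without the variance trend (-0.19).

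All 6 mitotic kinases fell in C-Myc-sh, whereas in Slc7a5-sh TTK rose, AURKB fell and 4 had no call. The Slc7a5-sh counts are 16.7% each way, near the 14.3% higher and 11.0% lower of all tested genes. AURKB (209464_at), the kinase of the chromosomal passenger complex, which corrects faulty attachments, had 10.25, 10.32 and 10.40 in Slc7a5-sh arrays, 9.51, 9.36 and 9.46 in C-Myc-sh arrays, and 10.40, 10.90 and 10.73 in Ctrl-sh arrays. It fell to 42.5% of the Ctrl-sh level in C-Myc-sh (log2 change -1.24 ± 0.11, adjusted p = 2.99e-07), with no overlap. In Slc7a5-sh it fell by 0.35 ± 0.11 (adjusted p = 0.0336), a call lost without Ctrl-sh replicate 2 (-0.24), Ctrl-sh replicate 3 (-0.33), Slc7a5-sh replicate 1 (-0.32) or Slc7a5-sh replicate 2 (-0.35). TTK (MPS1), the kinase that starts spindle checkpoint signalling, had 11.66, 11.60 and 11.45 in Slc7a5-sh arrays, 10.55, 10.40 and 10.41 in C-Myc-sh arrays, and 11.33, 11.22 and 11.20 in Ctrl-sh arrays. It was above every Ctrl-sh array in Slc7a5-sh (log2 change 0.32 ± 0.08, adjusted p = 0.00719) and below every Ctrl-sh array in C-Myc-sh (-0.80 ± 0.08, adjusted p = 4.94e-07). AURKA and PLK1, kinases of the centrosome and of many mitotic steps, were at 67.9% and 71.3% of the Ctrl-sh level in C-Myc-sh, MELK at 67.8% and NEK2 at 82.3%. The call of PLK1 was lost without Ctrl-sh replicate 2 (-0.43). In Slc7a5-sh PLK1 had a log2 change of 0.41 and no call (adjusted p = 0.0732), and without Slc7a5-sh replicate 2 it was called at 0.52.

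The partners of AURKB in the chromosomal passenger complex went in different directions in Slc7a5-sh: BIRC5 (survivin) and CDCA8 (borealin), which bring the complex to centromeres, rose, and INCENP, the scaffold that binds AURKB, fell. All 3 fell in C-Myc-sh. INCENP had 9.29, 9.06 and 9.05 in Slc7a5-sh arrays, 8.94, 9.21 and 9.39 in C-Myc-sh arrays, and 9.81, 9.94 and 9.82 in Ctrl-sh arrays. Both knockdowns lay below Ctrl-sh and overlapped with each other (-0.72 ± 0.13, adjusted p = 0.00103 in Slc7a5-sh; -0.68 ± 0.13, adjusted p = 0.000427 in C-Myc-sh). BIRC5 had 12.53, 12.43 and 12.44 in Slc7a5-sh arrays, 11.17, 11.15 and 11.23 in C-Myc-sh arrays, and 12.30, 12.19 and 12.19 in Ctrl-sh arrays. It was at 118% of the Ctrl-sh level in Slc7a5-sh (0.24 ± 0.06, adjusted p = 0.00804) and at 48.6% in C-Myc-sh (-1.04 ± 0.06, adjusted p = 1.71e-09). CDCA8 had 11.30, 11.30 and 11.47 in Slc7a5-sh arrays, 10.33, 10.41 and 10.32 in C-Myc-sh arrays, and 10.99, 10.95 and 10.67 in Ctrl-sh arrays. The 3 groups did not overlap, with log2 changes of 0.49 ± 0.09 (adjusted p = 0.00124) in Slc7a5-sh and -0.52 ± 0.09 (adjusted p = 0.000175) in C-Myc-sh.

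The 4 spindle checkpoint genes fell in C-Myc-sh, and in Slc7a5-sh MAD2L1 alone of the 4 was called, as lower. BUB1B (BUBR1), a subunit of the mitotic checkpoint complex, had 12.77, 12.79 and 13.08 in Slc7a5-sh arrays, 11.55, 11.77 and 11.73 in C-Myc-sh arrays, and 12.88, 12.91 and 12.98 in Ctrl-sh arrays. Only the C-Myc-sh arrays stood apart, at 42.3% of the Ctrl-sh level (-1.24 ± 0.08, adjusted p = 8.76e-09). MAD2L1 (MAD2), which is passed from unattached kinetochores to CDC20, had 12.97, 12.91 and 12.55 in Slc7a5-sh arrays, 12.35, 12.25 and 12.11 in C-Myc-sh arrays, and 13.13, 13.19 and 13.29 in Ctrl-sh arrays. It fell in Slc7a5-sh (-0.40 ± 0.09, adjusted p = 0.00683) and further in C-Myc-sh (-0.97 ± 0.09, adjusted p = 5.67e-07), with no overlap between groups. The Slc7a5-sh call was lost without the variance trend (-0.40, adjusted p = 0.0595). BUB1, a kinase at the kinetochore, was at 62.1% of the Ctrl-sh level in C-Myc-sh and BUB3, its binding partner, at 76.4%. The BUB3 call rests on 201457_x_at alone: on the next brightest, 209974_s_at, 201458_s_at and 201456_s_at, the log2 changes were -0.09, 0.11 and -0.02 with no call. It was lost with the mean of all probe sets (-0.24, adjusted p = 0.0835) and without probe sets ending in _s_at or _x_at (-0.51, adjusted p = 0.369).

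Of the 5 genes of the APC/C and sister separation, 5 fell in C-Myc-sh, whereas in Slc7a5-sh CDC20 rose and 4 had no call. CDC20, the activator of the APC/C that the checkpoint holds back, had 11.65, 11.82 and 12.04 in Slc7a5-sh arrays, 10.79, 11.01 and 10.94 in C-Myc-sh arrays, and 11.27, 10.98 and 11.50 in Ctrl-sh arrays. Every Slc7a5-sh array was above every Ctrl-sh array, at 150.0% of the Ctrl-sh level (0.59 ± 0.12, adjusted p = 0.00264), while C-Myc-sh and Ctrl-sh overlapped (-0.34 ± 0.12, adjusted p = 0.028). The C-Myc-sh call of CDC20 was lost without Ctrl-sh replicate 1 (-0.33), Ctrl-sh replicate 3 (-0.21) or C-Myc-sh replicate 1 (-0.27). PTTG1 (securin), the inhibitor of separase, had 13.67, 13.58 and 13.73 in Slc7a5-sh arrays, 13.15, 13.23 and 13.21 in C-Myc-sh arrays, and 13.71, 13.70 and 13.67 in Ctrl-sh arrays. It fell to 71.0% of the Ctrl-sh level in C-Myc-sh (-0.49 ± 0.05, adjusted p = 1.12e-06), and its Slc7a5-sh arrays overlapped with Ctrl-sh. ESPL1 (separase), which cuts cohesin, was at 72.9% in C-Myc-sh, UBE2C, a ubiquitin-conjugating enzyme of the APC/C, at 69.0%, and SGO1 (shugoshin), which protects centromeric cohesin, at 59.6%. UBE2C had a log2 change of 0.14 and no call in Slc7a5-sh, and without Slc7a5-sh replicate 2 it was called at 0.21.

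The 7 kinetochore and centromere genes held the 3 lowest log2 changes of the 54 in C-Myc-sh, those of SPC24, SPC25 and SKA1. In all 6 of them fell and NDC80 had no call. In Slc7a5-sh, CENPF and NDC80 rose, SPC24, SPC25 and SKA1 fell, and CENPA and NUF2 had no call. The 4-subunit NDC80 complex binds microtubules through NDC80 and NUF2 and is anchored in the kinetochore through SPC24 and SPC25. NDC80 (204162_at) had 12.07, 12.12 and 11.92 in Slc7a5-sh arrays, 11.52, 11.54 and 11.67 in C-Myc-sh arrays, and 11.75, 11.62 and 11.79 in Ctrl-sh arrays. It was above every Ctrl-sh array in Slc7a5-sh (0.32 ± 0.07, adjusted p = 0.00467) and overlapped with Ctrl-sh in C-Myc-sh (-0.14, adjusted p = 0.103), where it was called with each array centred on its median (-0.27). SPC24 (235572_at) had 9.87, 9.77 and 9.92 in Slc7a5-sh arrays, 8.94, 8.64 and 8.30 in C-Myc-sh arrays, and 10.59, 10.67 and 10.87 in Ctrl-sh arrays. It was at 55.2% of the Ctrl-sh level in Slc7a5-sh (-0.86 ± 0.14, adjusted p = 0.000571) and at 23.6% in C-Myc-sh (-2.08 ± 0.14, adjusted p = 1.22e-08). SPC25 had 10.39, 10.41 and 10.27 in Slc7a5-sh arrays, 9.64, 9.60 and 9.28 in C-Myc-sh arrays, and 10.84, 10.82 and 11.10 in Ctrl-sh arrays. Like SPC24 it was in 3 separate groups of arrays, at 67.7% of the Ctrl-sh level in Slc7a5-sh (adjusted p = 0.00184) and at 37.6% in C-Myc-sh (adjusted p = 4.82e-08). NUF2 had log2 changes of -0.09 in Slc7a5-sh (no call) and -0.71 ± 0.06 in C-Myc-sh. SPC24, SPC25 and NUF2 were chosen for their values.

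SKA1, a subunit of the complex that keeps kinetochores on shortening microtubules, had 11.29, 11.26 and 11.23 in Slc7a5-sh arrays, 10.20, 10.03 and 10.10 in C-Myc-sh arrays, and 11.59, 11.47 and 11.49 in Ctrl-sh arrays. It fell to 37.8% of the Ctrl-sh level in C-Myc-sh (-1.40 ± 0.07, adjusted p = 4.91e-10) and also fell in Slc7a5-sh (-0.26 ± 0.07, adjusted p = 0.0152), a call lost without Ctrl-sh replicate 1 (-0.22). CENPF, a large protein of the outer kinetochore that binds microtubules, had 12.31, 12.20 and 12.40 in Slc7a5-sh arrays, 11.46, 11.54 and 11.51 in C-Myc-sh arrays, and 11.84, 11.78 and 11.81 in Ctrl-sh arrays. Its 3 groups did not overlap, with a log2 change of 0.49 ± 0.06 (adjusted p = 7.05e-05) in Slc7a5-sh and -0.31 ± 0.06 (adjusted p = 0.000733) in C-Myc-sh. CENPA, the histone that marks centromeres, was at 70.0% of the Ctrl-sh level in C-Myc-sh.

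**Figure D3:**
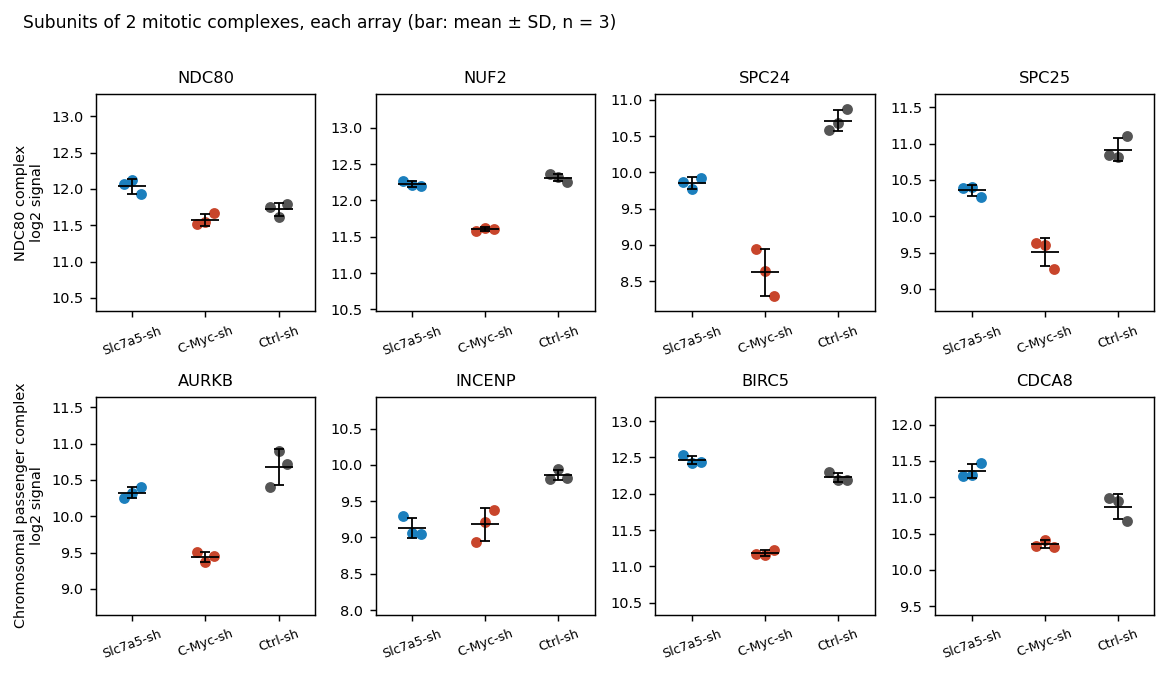
Log2 signal (y axis, every panel spanning the same number of log2 units) on each array for subunits of the NDC80 complex (top) and the chromosomal passenger complex (bottom) in Slc7a5-sh, C-Myc-sh and Ctrl-sh, with bars at the mean ± SD (n = 3). In Slc7a5-sh, NDC80, BIRC5 and CDCA8 lie above Ctrl-sh, SPC24, SPC25 and INCENP lie below it, and AURKB has its highest Slc7a5-sh array next to the lowest Ctrl-sh array at 10.40.

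The 9 kinesins all fell in C-Myc-sh, but by unequal amounts, with log2 changes between -0.23 (KIF4A) and -1.25 (KIF15). In Slc7a5-sh KIF4A rose, KIF11 fell and 7 had no call, which is 11.1% each way and near the shares of all tested genes. KIF11 (EG5), the motor that pushes spindle poles apart, had 11.65, 11.67 and 11.68 in Slc7a5-sh arrays, 11.15, 11.34 and 11.11 in C-Myc-sh arrays, and 11.84, 11.91 and 11.99 in Ctrl-sh arrays. It fell in Slc7a5-sh (-0.25 ± 0.07, adjusted p = 0.017) and C-Myc-sh (-0.71 ± 0.07, adjusted p = 6.04e-07), and the first of these calls was lost without Ctrl-sh replicate 3 (-0.21) or Slc7a5-sh replicate 1 (-0.24). KIF4A, a chromosome-bound motor that also shortens the midzone, had 10.92, 10.88 and 10.88 in Slc7a5-sh arrays, 10.50, 10.15 and 10.42 in C-Myc-sh arrays, and 10.62, 10.55 and 10.58 in Ctrl-sh arrays. It was called in both directions, by 0.31 ± 0.09 in Slc7a5-sh (adjusted p = 0.0206) and -0.23 ± 0.09 in C-Myc-sh (adjusted p = 0.0414). Its Slc7a5-sh call was lost without Ctrl-sh replicate 2 (0.29), Ctrl-sh replicate 3 (0.30) or Slc7a5-sh replicate 1 (0.29). Its C-Myc-sh call was lost without any 1 of the Ctrl-sh replicates (-0.21, -0.25 and -0.23 for replicates 1, 2 and 3), Slc7a5-sh replicate 1 (-0.23) or C-Myc-sh replicate 2 (-0.13). KIF15, which works beside KIF11, was at 42.1% of the Ctrl-sh level in C-Myc-sh, and KIF20A (MKLP2), which carries the passenger complex to the midzone, at 51.5%. KIF2C (MCAK), a microtubule depolymerase, was at 69.9% in C-Myc-sh, KIF14, a motor of cytokinesis, at 75.4%, and CENPE, which moves chromosomes to the spindle equator, at 80.6%. KIF2C had a log2 change of 0.19 and no call in Slc7a5-sh, and without Slc7a5-sh replicate 2 it was called at 0.27.

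The C-Myc-sh calls of KIF18A, which damps chromosome movement, and KIF23 (MKLP1), a motor of the central spindle, were also lost when any of several arrays was left out. KIF18A had 9.15, 9.38 and 9.25 in C-Myc-sh arrays, against 9.93, 9.26 and 9.71 in Ctrl-sh arrays, which overlap (adjusted p = 0.0455). That call was lost without Ctrl-sh replicate 1 (-0.23), Ctrl-sh replicate 3 (-0.34), Slc7a5-sh replicate 1 (-0.38), Slc7a5-sh replicate 2 (-0.38), C-Myc-sh replicate 1 (-0.32) or C-Myc-sh replicate 3 (-0.37). It lay close to the threshold: without Slc7a5-sh replicate 1 or 2, which are outside this contrast, the limma adjusted p was 0.0566 or 0.0516. KIF23 had 10.34, 10.44 and 10.37 in C-Myc-sh arrays, against 10.73, 10.83 and 10.50 in Ctrl-sh arrays (adjusted p = 0.0247). Its arrays did not overlap, but the call was lost without Ctrl-sh replicate 1 (-0.28), Ctrl-sh replicate 2 (-0.23), C-Myc-sh replicate 1 (-0.28) or C-Myc-sh replicate 3 (-0.30).

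The 5 spindle assembly genes fell in C-Myc-sh, and in Slc7a5-sh TACC3 and CKAP2 rose while 3 had no call. TPX2, which activates AURKA and nucleates microtubules near chromosomes, had 11.88, 11.85 and 11.73 in Slc7a5-sh arrays, 10.90, 10.98 and 11.07 in C-Myc-sh arrays, and 11.92, 11.92 and 11.89 in Ctrl-sh arrays. It fell to 52.6% of the Ctrl-sh level in C-Myc-sh (-0.93 ± 0.07, adjusted p = 1.89e-08), and its Slc7a5-sh change of -0.09 was not called. TACC3, which cross-links kinetochore fibres, had 11.07, 10.95 and 11.20 in Slc7a5-sh arrays, 9.75, 9.84 and 9.79 in C-Myc-sh arrays, and 10.91, 10.83 and 10.76 in Ctrl-sh arrays. It was at 48.7% of the Ctrl-sh level in C-Myc-sh (adjusted p = 6.42e-08) and 0.24 ± 0.08 higher in Slc7a5-sh (adjusted p = 0.0441). That Slc7a5-sh call was lost in 14 of 19 other settings, with log2 changes from 0.18 to 0.31 over the 19. Among the 14 were either other scaling, no filter, and leaving out any 1 Ctrl-sh replicate, Slc7a5-sh replicate 1 (0.24) or 3 (0.18), or C-Myc-sh replicate 3 (0.24). CKAP2, a microtubule-stabilising protein, had 12.21, 12.12 and 12.16 in Slc7a5-sh arrays, 11.74, 11.79 and 11.77 in C-Myc-sh arrays, and 11.93, 11.99 and 11.96 in Ctrl-sh arrays. Its groups did not overlap, with log2 changes of 0.20 ± 0.05 in Slc7a5-sh (adjusted p = 0.0145) and -0.20 ± 0.05 in C-Myc-sh (adjusted p = 0.00721). The Slc7a5-sh call of CKAP2 was lost without Ctrl-sh replicate 1 (0.19) or Slc7a5-sh replicate 1 (0.18). DLGAP5 (HURP), a kinetochore fibre protein, was at 60.1% of the Ctrl-sh level in C-Myc-sh, and NUSAP1, which bundles microtubules, at 72.6%.

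The condensin subunits and topoisomerase II alpha, which compact and untangle chromosomes, gave 4 decreases in C-Myc-sh and 0 calls among 4 genes in Slc7a5-sh on their brightest probe sets (limma, also 0 at an unadjusted p under 0.05). NCAPH, the kleisin of condensin I, had 10.58, 10.60 and 10.73 in Slc7a5-sh arrays, 9.54, 9.63 and 9.70 in C-Myc-sh arrays, and 10.75, 10.91 and 10.73 in Ctrl-sh arrays. It fell to 44.2% of the Ctrl-sh level in C-Myc-sh (-1.18 ± 0.09, adjusted p = 2.73e-08), and its Slc7a5-sh change was -0.16 (95% confidence interval -0.35 to 0.03). TOP2A differed between probe sets in Slc7a5-sh, at 0.09 with no call on 201292_at, which was counted here, and at -0.27 on the dimmer 201291_s_at, which was called lower (adjusted p = 0.0231). NCAPG was at 61.2%, NCAPD2 at 70.1% and TOP2A at 72.1% of the Ctrl-sh level in C-Myc-sh.

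Of the 4 cytokinesis genes 3 fell in C-Myc-sh and ANLN had no call, while in Slc7a5-sh RACGAP1 rose, ANLN fell and 2 had no call. PRC1, which bundles the central spindle, had 12.58, 12.52 and 12.62 in Slc7a5-sh arrays, 12.10, 12.13 and 12.29 in C-Myc-sh arrays, and 12.69, 12.61 and 12.68 in Ctrl-sh arrays. It fell to 71.2% of the Ctrl-sh level in C-Myc-sh (-0.49 ± 0.06, adjusted p = 7.16e-06). RACGAP1, which forms centralspindlin with KIF23, had 12.19, 12.16 and 12.25 in Slc7a5-sh arrays, 11.82, 11.79 and 11.68 in C-Myc-sh arrays, and 11.95, 11.96 and 11.95 in Ctrl-sh arrays. Its groups did not overlap, at 0.24 ± 0.06 in Slc7a5-sh (adjusted p = 0.00627) and -0.19 ± 0.06 in C-Myc-sh (adjusted p = 0.0105), and the C-Myc-sh call was lost without C-Myc-sh replicate 3 (-0.15). ANLN (anillin), the scaffold of the contractile ring, had 11.73, 11.90 and 11.84 in Slc7a5-sh arrays, 12.11, 12.05 and 11.90 in C-Myc-sh arrays, and 12.01, 11.99 and 12.17 in Ctrl-sh arrays. ANLN was named after its values were seen. It fell in Slc7a5-sh (-0.23 ± 0.07, adjusted p = 0.031), with all arrays below Ctrl-sh, and its C-Myc-sh arrays overlapped with Ctrl-sh. The call was lost without Ctrl-sh replicate 3 (-0.18), Slc7a5-sh replicate 1 (-0.19) or Slc7a5-sh replicate 3 (-0.24). ECT2, the exchange factor that activates RHOA, was at 74.3% of the Ctrl-sh level in C-Myc-sh.

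**Figure D4:**
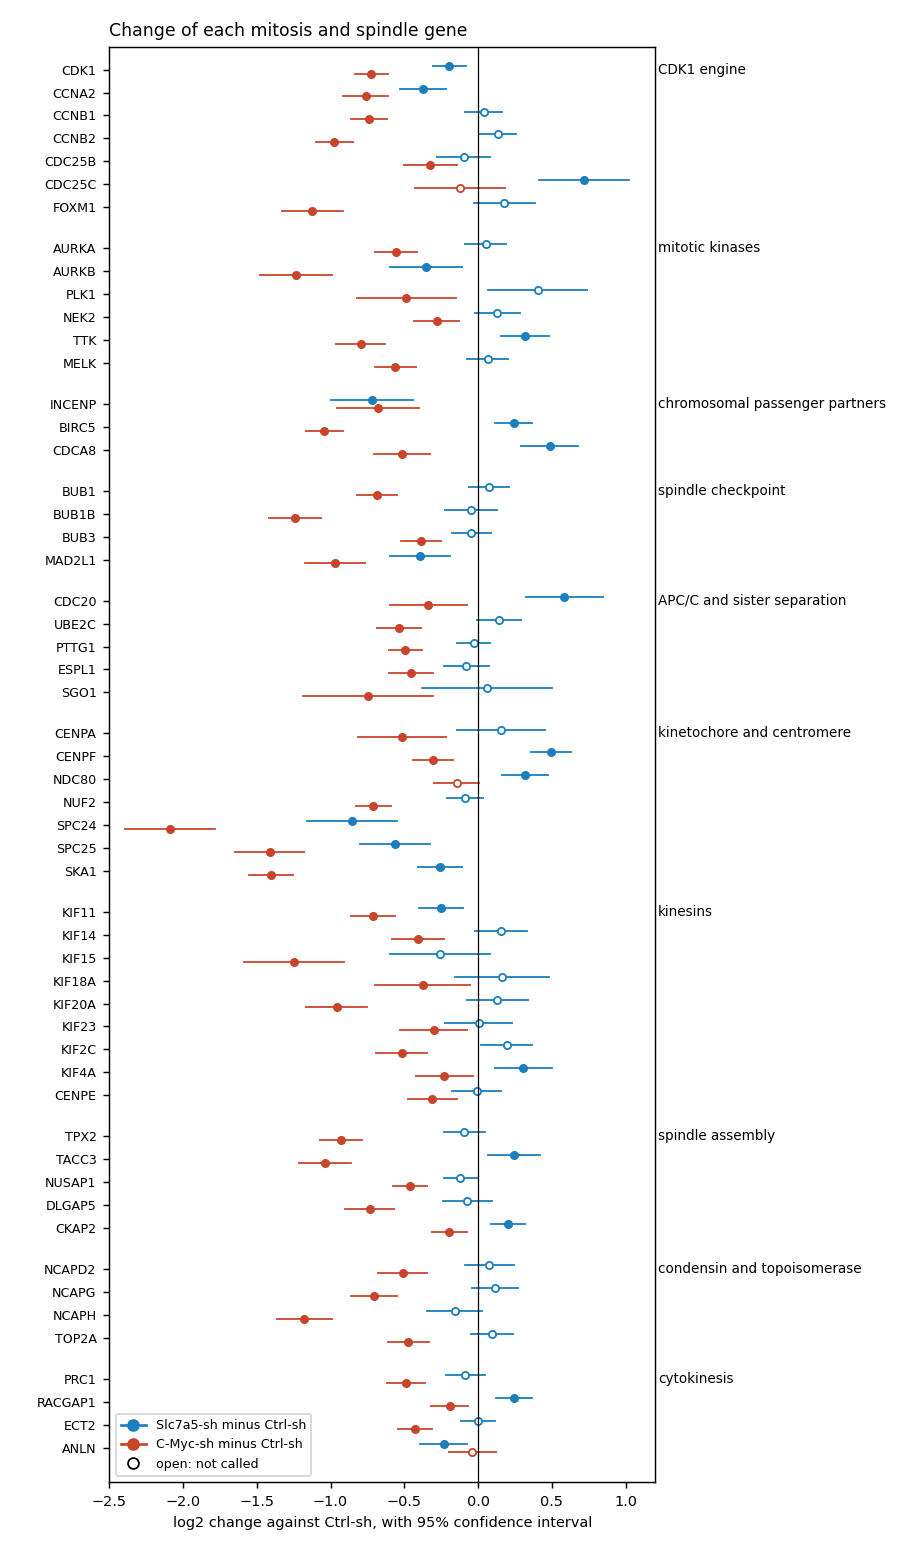
Log2 change against Ctrl-sh with its 95% confidence interval (x axis) for each of the 54 genes, in Slc7a5-sh (blue) and C-Myc-sh (red), with open points where the gene was not called. The red points lie left of 0 for all 54 genes, 51 of them called, and the blue points spread on both sides of 0, with 11 called higher and 10 called lower.

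In the 2 comparisons with Ctrl-sh, 9 genes rose in Slc7a5-sh and fell in C-Myc-sh: TTK, BIRC5, CDCA8, CDC20, CENPF, KIF4A, TACC3, CKAP2 and RACGAP1. As 51 of the 54 fell in C-Myc-sh, most genes that rose in Slc7a5-sh had to be among them. Of all tested genes 14.3% rose in Slc7a5-sh and 26.2% fell in C-Myc-sh, and the share with both calls is not given. Of these TTK kept both calls in all 19 other settings and CDCA8 in all 18 that measured it. CDC25C and NDC80 rose in Slc7a5-sh and had no call in C-Myc-sh. CDK1, CCNA2, AURKB, MAD2L1, SPC24, SPC25, SKA1, KIF11 and INCENP fell in both knockdowns, and 33 genes fell in C-Myc-sh with no call in Slc7a5-sh. Of the promoters of genes that rose in Slc7a5-sh, 4 of 8 held CHR letters and 5 of 8 held CCAAT letters. Among those that fell, 5 of 10 held CHR letters and 8 of 10 held CCAAT letters.

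The direct comparison of C-Myc-sh with Slc7a5-sh, which uses no Ctrl-sh array for its difference, tested how far the knockdowns differed. In it 52 of the 54 genes were lower in C-Myc-sh and 1 was higher, where 49.5% of all tested genes were called, 25.1% lower and 24.4% higher. The median log2 difference was -0.64, against 0.03 over all tested genes. The C-Myc-sh arrays lay below the Slc7a5-sh arrays without overlap for 51 genes and above them for 0. Of all tested genes 56.5% were without overlap, 27.7% below and 28.8% above. FOXM1 differed most, with log2 signals of 9.52, 9.74 and 9.42 in C-Myc-sh arrays, against 10.99, 10.78 and 10.82 in Slc7a5-sh arrays (-1.30 ± 0.10, adjusted p = 4.39e-08). The genes that fell in both knockdowns were, except INCENP, also lower in C-Myc-sh than in Slc7a5-sh, as in SPC24 (-1.23 ± 0.14, adjusted p = 4.61e-06; lost with the mean of its probe sets, at -0.67) and SKA1 (-1.15 ± 0.07, adjusted p = 6.31e-09). INCENP did not differ beyond its spread (0.05 ± 0.13, adjusted p = 0.801). ANLN was higher in C-Myc-sh (0.19 ± 0.07, adjusted p = 0.0408), though the lowest C-Myc-sh and the highest Slc7a5-sh array were both at 11.90. The call of ANLN was lost with each array centred on its median (0.08), and without Ctrl-sh replicate 1 (0.19), Slc7a5-sh replicate 1 (0.15), Slc7a5-sh replicate 3 (0.20), C-Myc-sh replicate 1 (0.15) or C-Myc-sh replicate 2 (0.18). The call of CDC25B was lost without Slc7a5-sh replicate 3 (-0.16), C-Myc-sh replicate 1 (-0.16) or C-Myc-sh replicate 2 (-0.22). For KIF23 it was lost without Slc7a5-sh replicate 1 (-0.28), Slc7a5-sh replicate 3 (-0.22), C-Myc-sh replicate 1 (-0.29) or C-Myc-sh replicate 3 (-0.30).

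Further probe sets of the same genes gave a second reading on the same arrays. The 54 genes have 98 probe sets, and 40 of the other 44, from 24 genes, were above the level for testing. They are dimmer than the ones described so far, by the rule that chose these. In C-Myc-sh, 20 of the 40 were lower and 0 were higher, where 48.6% of all probe sets tested were called, 22.4% lower and 26.2% higher. In Slc7a5-sh, 6 were lower and 0 were higher, where 20.4% were called, 9.38% lower and 11.0% higher. Of 38 whose gene was called in C-Myc-sh, 20 repeated the call and 18 had no call. Of 16 whose gene was called in Slc7a5-sh, 4 repeated the call, 11 had no call and 1 was opposite. No increase in Slc7a5-sh was repeated. For BIRC5, 210334_x_at and 202094_at fell in C-Myc-sh, with log2 changes of -1.25 and -0.80, and in Slc7a5-sh they had 0.20 and 0.22 with no call. CENPF had -0.99 in C-Myc-sh on 209172_s_at, which was called, and 0.33 in Slc7a5-sh, which was not. CKAP2 went against itself in Slc7a5-sh: 230128_at fell by 0.66 (adjusted p = 0.00936), opposite to the brighter 218252_at. These probe sets were named after their values were seen. With the mean of all probe sets per gene, 7 genes rose in Slc7a5-sh, and the calls of CDC25C (0.15), AURKB (-0.22), BIRC5 (0.10), SPC24 (-0.55), TACC3 (0.24), CKAP2 (-0.10) and ANLN (-0.09) were lost. In C-Myc-sh that mean ended 10 calls, with log2 changes from -0.24 to -0.60: CCNB2, AURKA, BUB1, BUB3, CDC20, SGO1, KIF18A, KIF23, TOP2A and ECT2.

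Other settings also ended calls. In Slc7a5-sh, centring each array ended that of CKAP2 (0.19), quantile normalization that of ANLN (-0.22), and leaving out probe sets ending in _s_at or _x_at those of BIRC5 (0.22) and CENPF (0.50), while ANLN had 0.05. Without the variance trend AURKB (-0.35), KIF11 (-0.25), KIF4A (0.31) and ANLN (-0.23) lost their Slc7a5-sh calls, and CDC20 (-0.34), KIF18A (-0.38), KIF23 (-0.30) and KIF4A (-0.23) their C-Myc-sh calls. In C-Myc-sh, quantile normalization ended the calls of RACGAP1 and CKAP2 (-0.11 each). With no filter, or with the 6 arrays compared alone, KIF18A (-0.38) and KIF4A (-0.23) were not called. Without probe sets ending in _s_at or _x_at, AURKA (-0.45) and KIF23 (-0.26) were not called, and CENPF had 0.17.

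Other genes of mitosis, written as 7 lists of 120 genes with results of these data known, were counted in the same way. Of 112 tested, 67 fell and 15 rose in C-Myc-sh (8 rose with each array centred on its median; median log2 change -0.42), which is 59.8% lower and 13.4% higher, beside 26.2% and 28.7% of all tested genes. In Slc7a5-sh 15 fell and 12 rose (median -0.04), which is 13.4% lower and 10.7% higher, beside 11.0% and 14.3% of all tested genes. Among kinetochore and centromere genes outside the 54, 17 of 24 (70.8%) fell in C-Myc-sh and 0 rose (0 also at an unadjusted p under 0.05, and 1 without Ctrl-sh replicate 2). CENPX and CENPW, histone-fold proteins of the inner kinetochore, had 33.5% and 45.1% of the Ctrl-sh level in C-Myc-sh. In Slc7a5-sh KNL1, the platform for BUB proteins, rose (0.43) and MIS18A, which helps load CENPA, fell (-0.31). With the mean of all probe sets KNL1 had -0.11 there, and the call of MIS18A was lost without Ctrl-sh replicate 2 (-0.28), Ctrl-sh replicate 3 (-0.24), Slc7a5-sh replicate 2 (-0.27) or Slc7a5-sh replicate 3 (-0.28). The other 5 condensin subunits all fell in C-Myc-sh, with log2 changes of -0.87 for NCAPD3 and -0.73 for SMC2. NCAPD3 also fell in Slc7a5-sh (-0.32), a call lost without Ctrl-sh replicate 1 (-0.31), Ctrl-sh replicate 2 (-0.30) or Slc7a5-sh replicate 2 (-0.29), while NCAPH2 had -0.25 there and no call. Without probe sets ending in _s_at or _x_at, which can also bind related transcripts, NCAPH2 rose in C-Myc-sh (0.72). Of 26 further spindle and cytokinesis genes, 21 fell (80.8%) and 2 rose (7.69%) in C-Myc-sh, with 0 that rose without Ctrl-sh replicate 1, Ctrl-sh replicate 3 or C-Myc-sh replicate 1 and 1 without Slc7a5-sh replicate 2 or C-Myc-sh replicate 2. TUBG1 (gamma-tubulin), which nucleates microtubules, fell in Slc7a5-sh (-0.53) and C-Myc-sh (-1.33), and so did CEP55, an abscission factor (-0.42 and -0.98). Of 16 further checkpoint and entry regulators, 10 fell (62.5%) and 2 rose (12.5%) in C-Myc-sh, with 1 that rose without C-Myc-sh replicate 3, and with each array centred on its median 0 of these and 0 of the spindle and cytokinesis genes rose. TRIP13, which remodels MAD2, fell in Slc7a5-sh (-0.41) and C-Myc-sh (-1.90, to 26.8% of the Ctrl-sh level), and CDC25A, a CDK phosphatase, fell in C-Myc-sh (-1.45). MAD2L1BP (p31comet), which works with TRIP13, rose in Slc7a5-sh (0.57) and C-Myc-sh (0.37), the second call being lost with each array centred on its median (0.24).

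Of 16 APC/C subunits and regulators, 4 fell (25.0%) and 3 rose (18.8%) in C-Myc-sh, beside 26.2% and 28.7% of all tested genes. In other settings 7 rose with quantile normalization, 1 with each array centred on its median and 5 without Slc7a5-sh replicate 3. In C-Myc-sh UBE2S, which extends ubiquitin chains, was at -0.71 and ANAPC5, a scaffold subunit, at -0.66. In Slc7a5-sh FBXO5 (EMI1), an APC/C inhibitor, fell (-0.56) and ANAPC13, a small subunit, rose (0.35). The call of ANAPC13 was lost with the mean of its probe sets (0.25). Of 13 cohesin genes, 4 fell and 4 rose in C-Myc-sh (30.8% each), near the shares of all tested genes, 26.2% and 28.7%. CDCA5 (sororin), which stabilises cohesin in G2, fell (-1.17), and STAG2, a core subunit, rose (0.48). STAG1, the alternative to STAG2, rose in Slc7a5-sh (0.59) and C-Myc-sh (0.39), and so did NIPBL, the cohesin loader (0.43 and 0.71). The Slc7a5-sh call of NIPBL was lost with the mean of its probe sets (0.24) and without probe sets ending in _s_at or _x_at (0.09). Among 12 genes of MuvB, MYB and pocket proteins, the regulators of these promoters, 6 fell (50%) and 4 rose (33.3%) in C-Myc-sh, beside the same 26.2% and 28.7% of all tested genes. MYBL2, the activator, fell in Slc7a5-sh (-0.62) and C-Myc-sh (-0.91). E2F5, a partner of the pocket proteins, fell in C-Myc-sh (-1.26), and TFDP2, a dimer partner of E2F proteins, in Slc7a5-sh (-0.32). The increases in C-Myc-sh were LIN37 and LIN52 (0.85 and 0.92), subunits of MuvB, and RBL1 and RBL2 (0.34 and 0.76), pocket proteins, all named after their values were seen. LIN52 was also called higher in Slc7a5-sh, a call lost without Ctrl-sh replicate 2 (0.43) or Slc7a5-sh replicate 1 (0.49). In C-Myc-sh the call of LIN37 was lost with the mean of its probe sets (0.99). The call of RBL1 was lost with either other scaling (0.22 and 0.21), and without Ctrl-sh replicate 1 (0.26) or 3 (0.33), Slc7a5-sh replicate 1 (0.34) or 2 (0.34), or C-Myc-sh replicate 1 (0.28) or 2 (0.27).

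For comparison with the preceding cell cycle phase, 48 DNA replication genes were counted in the same way. In C-Myc-sh 41 of them (85.4%) fell and 0 rose (0 also at an unadjusted p under 0.05). Of all tested genes 26.2% were called lower and 28.7% higher there. The median log2 change of the 48 was -0.66, beside -0.55 for the 54 mitosis genes. In Slc7a5-sh 20 of the 48 (41.7%) fell and 1 rose (2.08%), beside 11.0% lower and 14.3% higher of all tested genes. The count that rose was 0 without any 1 Ctrl-sh replicate or Slc7a5-sh replicate 1. The median log2 change was -0.21. The mitosis genes had 10 lower, 11 higher and a median of 0.06. The difference between the lists, both chosen with earlier results of these data known, was not tested.

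**Figure D5:**
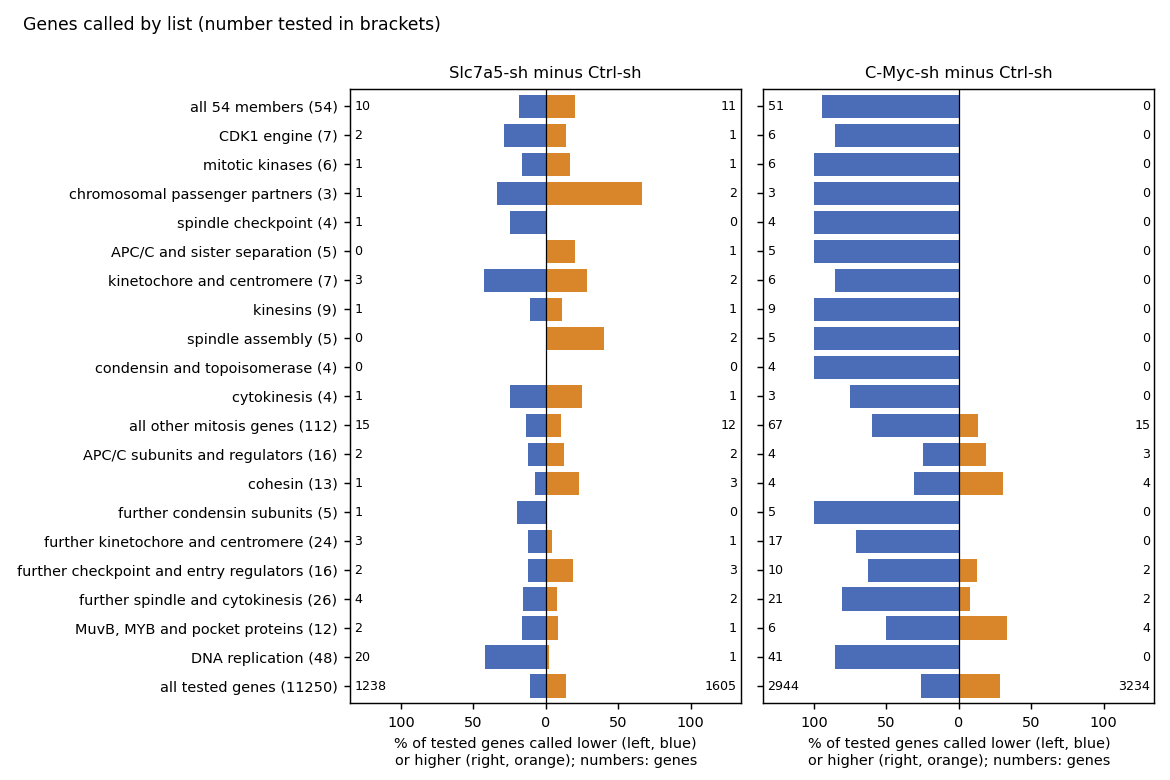
Share of the tested genes of each list called lower (left, blue) or higher (right, orange), in percent, in Slc7a5-sh minus Ctrl-sh and in C-Myc-sh minus Ctrl-sh, with the numbers of genes at the panel edges. The 54 mitosis genes had 10 lower and 11 higher in Slc7a5-sh and 51 lower and 0 higher in C-Myc-sh. The 48 replication genes had 20 lower and 1 higher in Slc7a5-sh. All tested genes had 1238 lower (11.0%) and 1605 higher (14.3%) in Slc7a5-sh.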

How the data were processed

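Total RNA of Daudi cells was amplified from the 3' end, labelled with biotin and hybridised to an array, per the labels' protocols; groups and replicates come from the sample titles. The authors deposited log2 signals, 1 per probe set and array; the submitters' processing notes name MAS5, with no version. After a return to the linear scale each array had the same trimmed mean, so values are relative to the array's total. No further normalization was applied. Of 54613 probe sets, 41091 had 1 gene symbol, 1801 several and 11721 none. A gene was read from its probe set with the highest mean and tested where that mean reached the median of all probe sets (5.77 on the log2 scale).

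R 4.3.3 and limma 3.58.1 fitted 3 group means over 9 arrays (eBayes with trend; residual degrees of freedom 6, prior 8.21), with 3 two-sided contrasts, Benjamini-Hochberg adjustment over 11250 genes and 95% confidence intervals. The fit was tested on simulated data. Members and lists were chosen with earlier results of these data known, and p-values over the members alone are not given. Array values are shown for the gene with the smallest p of each function in either comparison with Ctrl-sh and for those that rose in Slc7a5-sh; FOXM1, CDK1, SPC24, SPC25, KIF18A, KIF23 and ANLN were added after their values were seen. Of each further list, the 2 with the smallest p in each comparison are named. No label states that a replicate number marks a shared infection or day, so replicate numbers were not used in the main fit. Same-numbered arrays of different groups also did not deviate together (r -0.02 to 0.02 in 9 pairs). Alternatives covered scaling, filter, floor, choice of probe set, variance model, arrays in the fit, a replicate block and leaving out each array. Promoters came from RefSeq; 8 of the 54 genes have none in the table used.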

Additional observations from a re-analysis of the deposited data

How the results depend on the processing

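Against Ctrl-sh, 8 of 21 calls in Slc7a5-sh (CCNA2, CDC20, CDCA8, INCENP, NDC80, RACGAP1, SPC25 and TTK) and 36 of 51 in C-Myc-sh held in every one of the 19 other settings that measured them, and 39 of 53 in C-Myc-sh against Slc7a5-sh. With the mean of all probe sets per gene, 7 genes were higher in Slc7a5-sh (median -0.019), of 1581 called among all genes, and in C-Myc-sh against Slc7a5-sh the median was -0.61. Without probe sets ending in _s_at or _x_at, 40 genes remained, 4 higher in Slc7a5-sh (median -0.0093), with a median of -0.70 in C-Myc-sh and 34 lower in C-Myc-sh than in Slc7a5-sh. Without the variance trend 5 were lower in Slc7a5-sh. Quantile normalization gave a median of -0.58 in C-Myc-sh. Centring each array on its median gave -0.68, and -0.76 against Slc7a5-sh; it moved all genes by -0.13 and -0.12 and the share of calls that were higher to 40.7% from 52.3% as deposited, and to 36.8% from 49.3%. Leaving out single arrays gave 8 to 14 higher and 7 to 10 lower in Slc7a5-sh, 47 to 51 lower in C-Myc-sh (median -0.58 to -0.54), and 0 or 1 higher in C-Myc-sh against Slc7a5-sh. That count was also 0 with centring, no filter, the mean of probe sets, no _s_at or _x_at probe sets, no trend, or the replicate block. With the replicate block 10 genes were higher and 10 lower in Slc7a5-sh, and 50 lower in C-Myc-sh, without TACC3 (0.24) and KIF18A (-0.38) among them.

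Signs turned for CKAP2 in Slc7a5-sh (-0.10) and CDC25C in C-Myc-sh against Slc7a5-sh (0.091) with the mean of probe sets, and there also for KNL1 in Slc7a5-sh (-0.11) and for RBL1 (-0.76) and NCAPH2 (0.18) in C-Myc-sh. Without _s_at or _x_at probe sets they turned for ANLN in Slc7a5-sh (0.052), CENPF (0.17) and NCAPH2 (0.72) in C-Myc-sh, and AURKA (0.14) and ANLN (-0.13) in C-Myc-sh against Slc7a5-sh. These settings read other, mostly dimmer probe sets. NDC80 was called lower in C-Myc-sh with centring (-0.27), RACGAP1 and CKAP2 lost their C-Myc-sh calls with quantile normalization (-0.11 each), and CENPF its Slc7a5-sh call without _s_at or _x_at probe sets (0.50). No cause was tested for any of these changes. Signals near background and 3 arrays per group limit small changes.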
